A study of Arabidopsis thaliana with 2 samples.

Results

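The 10 genes described here encode the plastid chaperonins, their co-chaperonins and the plastid HSP70 proteins of Arabidopsis thaliana (thale cress), 10 of 27336 loci in the count files. They were chosen by locus from the chaperone families, with results from these same libraries already known, so their values are a description and carry no test. The samples were leaves of the Columbia ecotype from soil-grown plants at an age of 3 weeks, kept with 12 h of light a day at 24 °C by day and 20 °C at night. A wildtype line was set beside 1 mutant line, atpip1;2-1, with a deficiency of PIP1;2, a water channel (aquaporin) of the plasma membrane. Each genotype was represented by 1 library of cDNA from transcript 3' ends, made from RNA of 10 plants, with 4079098 reads in the wild type against 4041759 in the mutant. The comparison asks which leaf transcripts differ when this aquaporin is reduced.

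Chaperonins are barrel-shaped complexes in which other proteins fold in an enclosed chamber. The plastid form (Cpn60) is built from alpha and beta subunits and is closed by a lid of co-chaperonins, and it is best known for folding the large subunit of Rubisco. The plastid HSP70 proteins bind unfolded chains in the stroma and also take part in pulling proteins through the chloroplast envelope. Most plant genomes hold several copies of each subunit, and some of the minor copies are known for particular client proteins.

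With 1 library per genotype the differences have no replicate check. All intervals below are 95% intervals that cover counting error only, and because reads carry no molecular identifiers they are not independent molecules. Levels are CPM, read counts scaled to library sizes adjusted by the TMM method. A gene is said to pass the 2-fold rule when its reads over both libraries were at least 20, its CPM differed at least 2-fold and the interval of its log2 ratio excluded 0. PIP1;2 itself (AT2G45960, listed as PIP1B) had 4211 reads in the wild type against 566 in the mutant (log2 ratio -2.95, -3.08 to -2.83). The 4 leaf markers had between 11594 and 92072 reads in each library. Of 6 markers of root, flower and seed, 4 were at 0 in both libraries, PYK10 had 10 and 15 reads and AG had 2 and 0. In a whole leaf, fewer cells of a type and less RNA per cell cannot be told apart.

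The mutant library held fewer reads of these chaperones. Summed over the 10 genes, the level was 2323 CPM in the wild type against 1182 CPM in the mutant, or 50.9% of the wild-type level. All 10 log2 ratios lay below 0, from -1.52 for CPN60A to -0.44 for CHL-CPN10, whereas 50.2% of the 15111 genes with at least 20 reads lay below 0. Their median was -0.90 against -0.00 over all those genes. By the 2-fold rule 4 of the 10 were lower and 0 were higher, where 1.71% of all genes were lower and 1.9% higher. With a minimum of 100 reads 7 of the 10 could be judged and the same count of 4 was lower, against 0.915% of genes lower and 1.11% higher. At 1.5-fold 7 of the 10 were lower and 0 higher, against 5.93% and 5.34% of all genes. The 4 past the 2-fold rule were the main alpha subunit, the 2 most abundant beta subunits and 1 of the 2 HSP70 genes. Over all genes the rule gave 258 lower and 287 higher, a split that became 186 and 366 with total counts as library sizes and 82 and 812 with summed reference genes. The latter scaling shifts every gene alike and puts the median of all genes at 0.29, against which the list medians given with it are to be read. The 10 genes made up 0.227% of all reads in the wild type (0.222% to 0.231%) and 0.121% in the mutant (0.118% to 0.125%), shares that amount to scaling by total counts.

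**Figure D1:**
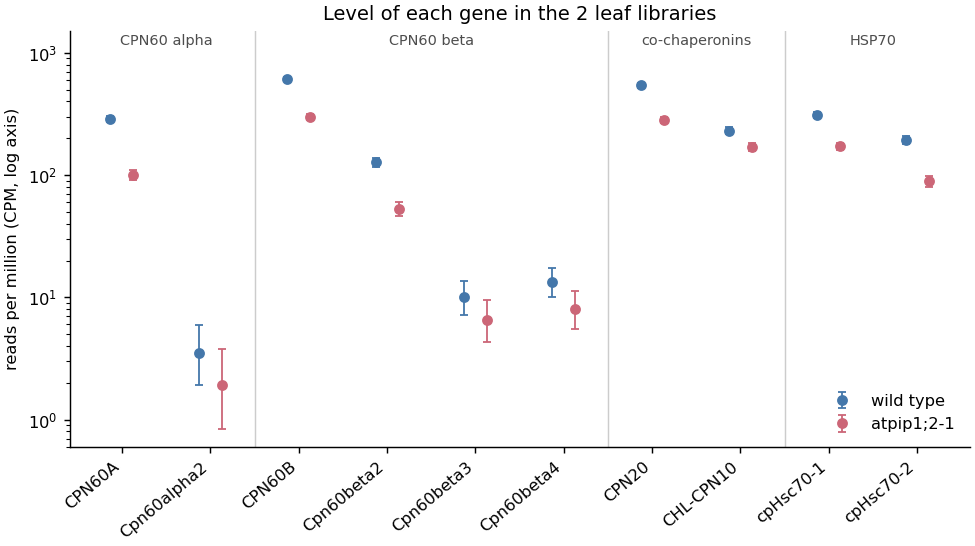
Level of each gene in the wild-type and the mutant library, in CPM on a log axis, with 95% counting intervals as bars (1 library per genotype). Every mutant point lies below its wild-type point, and the intervals of Cpn60alpha2, Cpn60beta3 and Cpn60beta4, with 8 to 53 reads a library, overlap.

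The reads can be assigned to single copies only where the copies differ in sequence. Among the beta subunits, the coding sequences of CPN60B and Cpn60beta2 were 88.0% identical and those of CPN60B and Cpn60beta3 78.3%, and the 2 HSP70 genes were 85.2% identical. The last 30 coding bases show how close the copies stay up to the stop codon. Transcripts can run on past the stop codon, so 3' end reads may lie beyond these bases, which do not measure how reads were assigned. Sequences are from RefSeq (TAIR10.1), and capitals mark bases that differ from CPN60B in the beta subunits or from cpHsc70-1 in the HSP70 pair.
CPN60B: ccaatggacaactcaggatatggatactaa
Cpn60beta2: ccaatggacaactcaggTtatggatactaa
Cpn60beta3: ccTatggacaaTtcaggTtaCggCtTctaa
cpHsc70-1: atcgatgctgacttcacagacagccaatga
cpHsc70-2: atTgaCgctgacttcacagacagcAaTtAa
Cpn60beta2 differed from CPN60B at 1 of these 30 bases and Cpn60beta3 at 6, while the HSP70 pair differed at 5. The last 500 bases were searched in 1 annotated transcript per gene, that with the longest coding sequence. Within them none of the 10 genes shared a stretch of 36 bases with the transcripts of any other locus. Ends of other annotated transcripts of these genes were not searched. Stretches of 25 bases were shared at 1.89% of positions in CPN60B, with Cpn60beta2 and Cpn60beta4, at 1.05% in Cpn60beta4 and at 1.05% in cpHsc70-2. The sources used here do not give the read length or how multi-mapping reads were counted.

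CPN60A (AT2G28000, chromosome 2), the main alpha subunit, had the lowest ratio of the 10. It had 1148 reads in the wild type against 417 in the mutant, or 288 CPM (272 to 306) and 101 CPM (91.3 to 111). The log2 ratio was -1.52 (-1.68 to -1.36), which left 34.9% of the wild-type level (31.1% to 39.1%). Of the 1067 genes that reached 1000 reads in the sum of both libraries, only 1, PIP1;2, had a lower ratio, so CPN60A ranked 2. CPN60A was the only one of the 10 that passed the 2-fold rule under every scaling tried, with ratios from -1.55 to -1.23. The second alpha gene, Cpn60alpha2 (AT5G18820, chromosome 5), which is needed for embryo development, was near the limit of detection. It had 14 and 8 reads, and its log2 ratio of -0.86 had an interval from -2.32 to 0.49. It contributed 1.20% of the alpha reads in the wild type (0.660% to 2.01%) and 1.88% in the mutant (0.816% to 3.68%), so a change in its share was not detectable at this depth.

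CPN60B (AT1G55490, chromosome 1), the main beta subunit, also known as Cpn60beta1, had the most reads of the 10. It had 2417 reads in the wild type against 1241 in the mutant, 607 CPM (583 to 632) and 300 CPM (283 to 317). Its log2 ratio of -1.02 (-1.12 to -0.92) lay at the edge of the 2-fold rule, and the rule was missed with total counts as library sizes (-0.95), with totals without organelle loci and the 20 most abundant loci (-0.95) and with summed reference genes (-0.73). Cpn60beta2 (AT3G13470, chromosome 3), its closest copy, had 506 and 218 reads, or 127 CPM (116 to 139) and 52.6 CPM (45.9 to 60.1). The log2 ratio was -1.27 (-1.51 to -1.04), and it missed the rule with summed reference genes (-0.98). The difference between the ratios of Cpn60beta2 and CPN60B was -0.25 (-0.50 to -0.00), which only just cleared counting error.

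The minor beta genes had few reads. Cpn60beta3 (AT5G56500, chromosome 5) had 40 and 27 reads, with a log2 ratio of -0.62 (-1.38 to 0.12). Cpn60beta4 (AT1G26230, chromosome 1), a subunit with a divergent end that is known for folding the NdhH subunit of the chloroplast NADH dehydrogenase-like complex, had 53 and 33 reads (-0.74, -1.41 to -0.09). Neither passed the 2-fold rule. The makeup of the beta reads was close in the 2 libraries. CPN60B supplied 80.1% of them in the wild type (78.7% to 81.6%) and 81.7% in the mutant (79.7% to 83.6%). Cpn60beta2 supplied 16.8% (15.5% to 18.2%) and 14.4% (12.6% to 16.2%), with overlapping intervals.

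The log2 ratio of the alpha sum lay below that of the beta sum by more than counting error. Summed, the 2 alpha genes were at 292 CPM in the wild type against 103 CPM in the mutant (log2 ratio -1.51, -1.67 to -1.35), and the 4 beta genes at 758 and 367 CPM (-1.05, -1.14 to -0.96). Alpha genes supplied 27.8% of all Cpn60 reads in the wild type (26.5% to 29.2%) and 21.9% in the mutant (20.0% to 23.8%), and these intervals do not overlap. CPN60A supplied 98.8% of the wild-type alpha reads and 98.1% of the mutant ones, and CPN60B most of the beta reads. The sums and the Cpn60 share therefore mainly restate 1 pair of genes. The interval of Cpn60beta2 (-1.51 to -1.04) overlapped that of CPN60A (-1.68 to -1.36), and their difference was not computed. Cpn60alpha2 (-0.86, -2.32 to 0.49) lay above CPN60B (-1.02) but below Cpn60beta3 (-0.62) and Cpn60beta4 (-0.74), all within its interval. For CPN60A against CPN60B the difference of log2 ratios was -0.50 (-0.69 to -0.31). These shares and differences are unaffected by how the libraries are scaled, but the spread between plant pools was not measured.

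**Figure D2:**
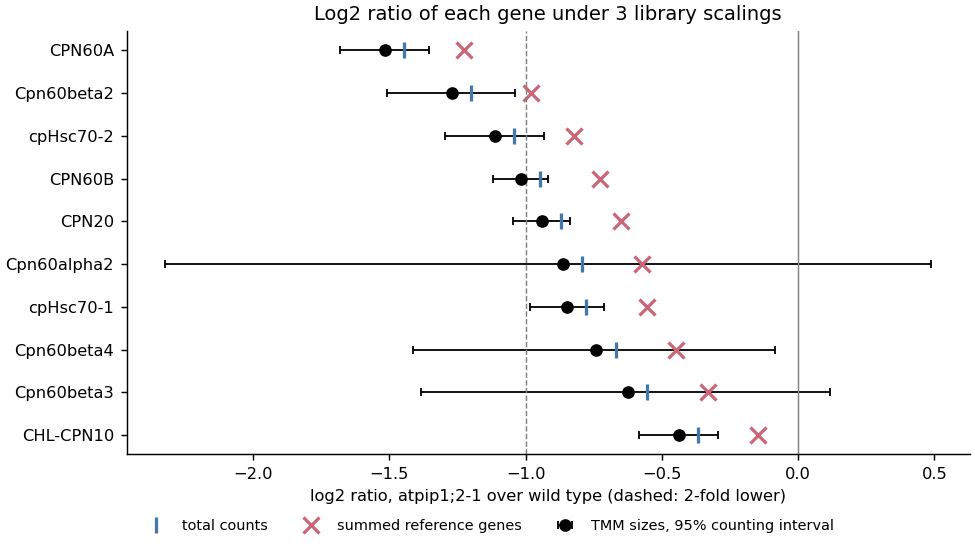
Log2 ratio of mutant over wild type for each gene, with TMM library sizes and 95% counting intervals (black), and the same ratio with total counts or summed reference genes as library sizes. All points lie below 0, and CPN60A alone stays beyond the dashed 2-fold line with all 3 scalings shown.

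The co-chaperonins showed 2 different ratios. CPN20 (AT5G20720, chromosome 5) joins 2 GroES-like domains in 1 protein and forms the lid together with the single-domain CHL-CPN10. CPN20 had 2157 reads in the wild type against 1168 in the mutant, 542 CPM (519 to 565) and 282 CPM (266 to 299), with a log2 ratio of -0.94 (-1.05 to -0.84). CHL-CPN10 (AT2G44650, chromosome 2) had 916 and 703 reads, 230 CPM (215 to 245) and 170 CPM (157 to 183), with a log2 ratio of -0.44 (-0.58 to -0.30). Neither passed the 2-fold rule. The ratio of CPN20 was lower than that of CHL-CPN10 by -0.50 (-0.68 to -0.33). CHL-CPN10 therefore supplied 29.8% of the co-chaperonin reads in the wild type (28.2% to 31.5%) and 37.6% in the mutant (35.4% to 39.8%). Taken with the Cpn60 subunits, the co-chaperonins supplied 42.4% of chaperonin reads in the wild type (41.2% to 43.5%) and 49.0% in the mutant (47.4% to 50.6%). A further plastid GroES-like locus that is not among the 10, AT3G60210, had 201 and 145 reads (-0.53, -0.85 to -0.21).

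Both plastid HSP70 genes had fewer reads in the mutant library. Summed, they were at 501 CPM in the wild type against 261 CPM in the mutant (-0.94, -1.05 to -0.84). cpHsc70-1 (AT4G24280, chromosome 4) had 1228 and 710 reads, 308 CPM (291 to 326) and 171 CPM (159 to 185), with a log2 ratio of -0.85 (-0.98 to -0.71). cpHsc70-2 (AT5G49910, chromosome 5) had 767 and 369 reads, 193 CPM (179 to 207) and 89.1 CPM (80.2 to 98.7), with a log2 ratio of -1.11 (-1.30 to -0.93). It passed the 2-fold rule, except with summed reference genes (-0.82). cpHsc70-2 supplied 38.4% of the HSP70 reads in the wild type (36.3% to 40.6%) and 34.2% in the mutant (31.4% to 37.1%). These intervals overlap, while the difference between the 2 log2 ratios, -0.27 (-0.49 to -0.04), excluded 0.

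**Figure D3:**
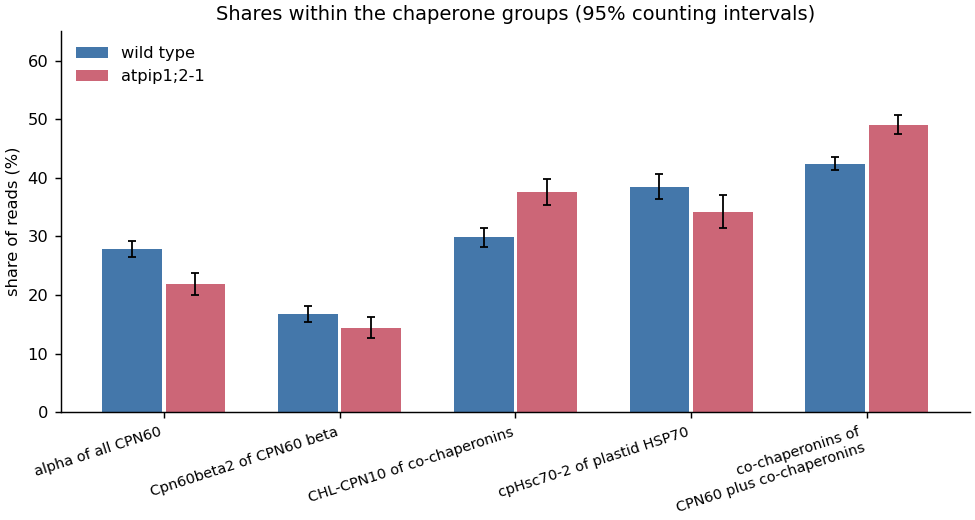
Share of reads taken by 1 component of each chaperone group in the wild-type and the mutant library, in percent, with 95% exact binomial (Clopper-Pearson) intervals. The intervals of the 2 libraries do not overlap for the alpha genes among all Cpn60 genes, for CHL-CPN10 among the co-chaperonins and for the co-chaperonins among all chaperonin reads.

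Per kilobase of annotated transcript, the order of the levels was CPN20 (471 CPM per kilobase), CPN60B (253), CHL-CPN10 (196), CPN60A (130), cpHsc70-1 (110), cpHsc70-2 (78.1), Cpn60beta2 (54.1), Cpn60beta4 (6.51), Cpn60beta3 (4.04) and, last, Cpn60alpha2 in the wild type. In the mutant CPN20 still led, at 245 CPM per kilobase. CHL-CPN10 (145) then stood above CPN60B (125), and cpHsc70-1 (61.1) above CPN60A (45.3). The order of the 5 lowest was the same in both libraries. Since reads came from the 3' end, division by length may understate long transcripts, and CPN60B has the most reads in CPM. Without this division neither change of order was seen. CPN60B stood above CHL-CPN10 in the wild type (607 and 230 CPM) and in the mutant (300 and 170 CPM). Likewise cpHsc70-1 stood above CPN60A in the wild type (308 and 288 CPM) and in the mutant (171 and 101 CPM). In CPM it was CHL-CPN10 that stood below CPN60A in the wild type and above it in the mutant.

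Of the 10 genes, 6 belonged to the abundant genes. Of the 1067 genes with at least 1000 reads, 7 were lower by the 2-fold rule and 4 higher, and 3 of those 7 were CPN60A, cpHsc70-2 and CPN60B. Counted from the lowest ratio, CPN60A ranked 2, cpHsc70-2 ranked 4, CPN60B ranked 7, CPN20 ranked 11, cpHsc70-1 ranked 26 and CHL-CPN10 ranked 253. Abundant genes as a class had a median of -0.14, with 714 of the 1067 below 0. With total counts as library sizes this median was -0.07 beside 0.07 over all genes, and with summed reference genes 0.15 beside 0.29, so its sign moved with the scaling while it stayed below that of all genes.

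**Figure D4:**
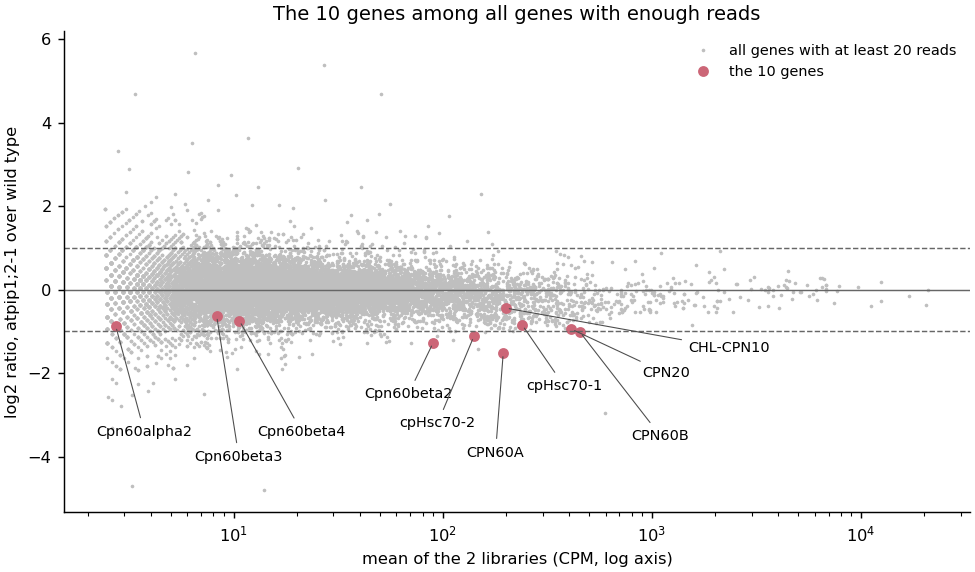
Log2 ratio of mutant over wild type against the mean level of the 2 libraries in CPM (log axis) for the 15111 genes with at least 20 reads, with the 10 chaperone genes marked. Dashed lines mark 2-fold differences, and CPN60A, Cpn60beta2, cpHsc70-2 and CPN60B lie below the lower line.

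Partners of these chaperones did not share 1 direction. Among 8 helpers of plastid HSP70, 7 had enough reads, 2 were higher by the 2-fold rule and 0 lower. J8 (AT1G80920), a small J-domain protein, had 363 and 990 reads (log2 ratio 1.39, 1.22 to 1.57). J11 (AT4G36040), of the same kind, had 282 and 606 reads (1.05, 0.84 to 1.26). The nucleotide exchange factor gene EMB1241 had 288 and 199 reads and a log2 ratio of -0.59. Of the other helpers, J20 had 172 and 277 reads (0.63, 0.35 to 0.91) and AT2G22360 had 183 and 115 (-0.73, -1.08 to -0.38). Of the 7 helpers 4 lay below 0. The median of the 7 was -0.27, and 0.02 with summed reference genes. Among 6 measured other chaperones of the stroma, CR88 (AT2G04030), the plastid HSP90, was lower, with 621 and 279 reads (-1.21, -1.42 to -1.01). CLPC1, an unfoldase of the Clp protease and the import motor, had 2379 and 2252 reads (-0.14), and the trigger factor-like AT5G55220 had 346 and 294 (-0.29). The median of these 6 was -0.29, and 0.01 with summed reference genes, where CR88 missed the rule (-0.92) and ERD1, a Clp unfoldase outside the rule for named genes, was higher (1.19, and 0.90 with TMM).

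The Clp protease core, which degrades stromal proteins, had 0 of 9 genes past the rule in either direction, a median of -0.25 (0.04 with summed reference genes) and ratios of -0.02 for CLPR1 and -0.29 for CLPP5. Of 6 genes for factors that assemble Rubisco after folding, 0 passed the rule and the median was -0.33 (-0.04 with summed reference genes). AT5G51110 had 2092 and 1669 reads (-0.38) and AT3G47650, the BSD2 gene, had 1315 and 1043 (-0.39). Rubisco and its activase had 0 of 5 past the rule and a median of -0.31 (-0.02 with summed reference genes), with RBCS1A at -0.37 and RBCS3B at -0.16. How reads divide among the near-identical RBCS genes is uncertain, and the chloroplast gene for the large subunit had 8 and 10 reads, under the minimum. Of 4 measured genes for other reported clients of the chaperonin, 1 was lower, 0 were higher and the median was -0.49 (-0.19 with summed reference genes). They included FTSZ1-1, a plastid division protein, which was lower with 250 and 129 reads (-1.01, -1.33 to -0.70), and KASI, an enzyme of fatty acid synthesis, with 468 and 297 reads (-0.71). The related division genes FTSZ2-1 and FTSZ2-2 had ratios of -0.26 and -0.11. FTSZ1-1 missed the rule with total counts (-0.94), with DESeq2 size factors (-0.995), with totals without organelle and abundant loci (-0.94) and with summed reference genes (-0.72). The genes for chloroplast protein import had 0 of 11 past the rule, yet all 11 ratios lay below 0, with a median of -0.52 (9 of 11 and -0.23 with summed reference genes). TIC110, which recruits chaperones at the inner envelope, had 455 and 288 reads (-0.72), and the receptor TOC159 had 534 and 392 (-0.50).

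Among the chaperonins of other compartments, the mitochondrial list had the lowest median. Of 9 genes, 4 were lower by the 2-fold rule and 0 higher, all 9 lay below 0 and the median was -0.96. mtHsc70-1 had 246 and 105 reads (-1.29, -1.63 to -0.95), HSP60-2, a mitochondrial Cpn60, had 223 and 115 (-1.01, -1.35 to -0.68), and AR192, also known as the exchange factor MGE2, had 58 and 21 (-1.52, -2.32 to -0.78). The GroES-like gene AT1G23100 had 43 and 17 reads (-1.40, -2.30 to -0.56). HSP60-2 missed the rule with total counts (-0.94), with DESeq2 size factors (-0.996) and with totals without organelle and abundant loci (-0.94), which left 3 of the 9. With summed reference genes HSP60-2 (-0.72) and mtHsc70-1 (-0.99) missed it, 7 of the 9 lay below 0 and the median was -0.66. AR192 and AT1G23100 fall under a minimum of 100 reads, at which 2 of 5 genes were lower. The cytosolic chaperonin CCT had 0 of 9 past the rule and a median of -0.27 (0.02 with summed reference genes), with AT5G26360 at -0.18 and AT3G11830 at -0.28. In the cytosolic and ER HSP70 list 5 of 8 genes lay below 0, the median was -0.20 (0.09 with summed reference genes), 2 genes were higher and 0 lower. They were the heat-inducible genes HSP70 (AT3G12580), with 13 and 32 reads (1.24, 0.27 to 2.30), and Hsp70b, with 5 and 18 (1.79, 0.31 to 3.58). Both fall under a minimum of 100 reads, at which 0 of 5 genes were higher. The heat stress list had 3 of 8 genes with enough reads, 0 past the rule (2 higher with summed reference genes, HSP90.1 and HSP101) and a median of 0.78, with HSP90.1 at 36 and 67 reads (0.84, 0.23 to 1.47) and MBF1C at 55 and 71 (0.31). No test of the difference between these lists was possible with 1 library per genotype.

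**Figure D5:**
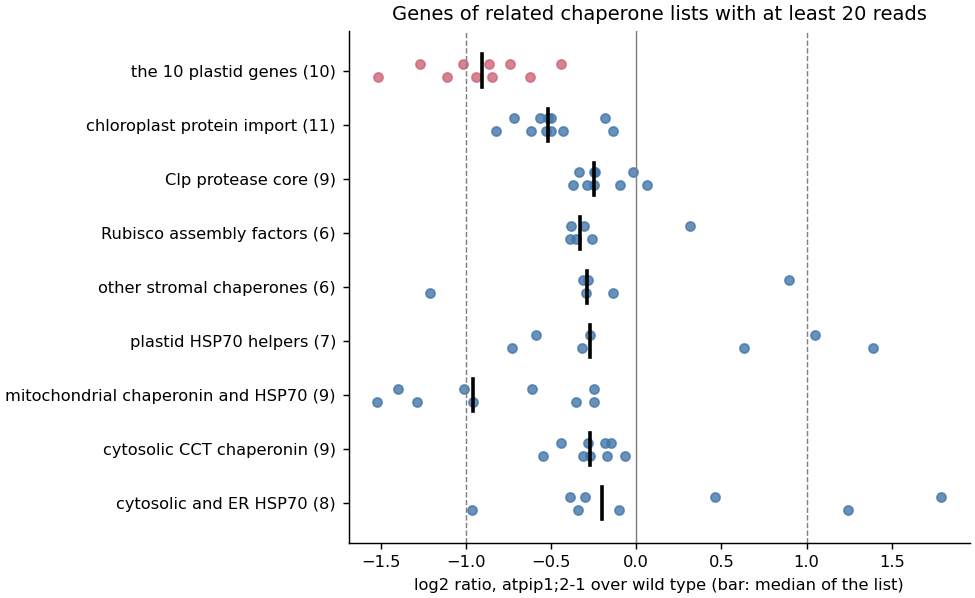
Log2 ratios of mutant over wild type for the genes with at least 20 reads in the plastid chaperone set and in 8 related lists (number of genes in brackets), with the median of each list as a black bar and 2-fold differences as dashed lines. The plastid set (median -0.90) and the mitochondrial list (-0.96) lie lowest with TMM library sizes, and the HSP70 helper list holds J8 at 1.39 and J11 at 1.05.

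The promoters of the genes were searched from 250 bases before to 50 after the annotated start (RefSeq, TAIR10.1), on both strands. The site II element, searched as TGGGCC, is a short promoter sequence bound by TCP transcription factors and common in genes of growth and protein synthesis. It was present in 5 of the 10 promoters and in 15.5% of 27443 promoters of protein-coding genes. The 5 were CPN60A, Cpn60beta2, cpHsc70-2 and CPN60B, the 4 that passed the 2-fold rule, and Cpn60beta4 (-0.74). The 5 genes without it had ratios from -0.94 to -0.44, and CPN20 (-0.94), Cpn60alpha2 (-0.86) and cpHsc70-1 (-0.85) lay below Cpn60beta4. The search was added after values had been seen, so this overlap is no test. It also depends on the library sizes, since CPN60B missed the rule with total counts. A window around the first match of each is shown in gene direction, with the element in capitals, and GGCCCA is the same element on the opposite strand.
CPN60A: tctattatTGGGCCataaacag
CPN60B: agaataaaGGCCCAaataggcc
Cpn60beta2: gtatgtaaTGGGCCtatttgat
Cpn60beta4: tcttctgtTGGGCCcgaaccaa
cpHsc70-2: gtttatgaTGGGCCaagttatt
Counted from the annotated start, these matches began at position -82 in CPN60A, -30 in CPN60B, -168 in Cpn60beta2, -78 in Cpn60beta4 and -90 in cpHsc70-2, and all but cpHsc70-2 held a second copy. Over all measured genes, those with the element had a median log2 ratio of -0.08 (3067 genes, 58.5% below 0) and those without it 0.02 (11887 genes, 48.1% below 0). By the 2-fold rule 1.99% of the genes with the element were lower and 1.01% higher, beside 1.63% lower and 2.15% higher of those without it. These counts moved with the scaling. With total counts 44 of the 3067 were lower and 50 higher, beside 140 and 315 of the 11887. With summed reference genes 19 and 113 were, beside 61 and 694. The 2 medians were -0.01 and 0.09 with total counts, and 0.21 and 0.31 with summed reference genes. The core of the heat shock element, searched as GAANNTTC, was in 4 of the 10 promoters and in 11.6% of all. It began at position 7 in CPN60A and 21 in cpHsc70-2, both after the annotated start. In Cpn60beta2 it began at -18 and in Cpn60beta4 at -223. The telo box AAACCCTA was in 3 of 10 (6.22% of all), the G-box CACGTG in 1 (7.68%) and the I-box GATAAG in 0 (14.6%). A match is a description of these letters and shows no binding.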

How the data were processed

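The authors deposited raw read counts per locus, 1 column per genotype per the file headers. Per the labels' protocols, a company built 3' end cDNA libraries from total leaf RNA of 10 plants and they were sequenced on a Genome Analyzer II. Per the submitters' processing notes the genome build was TAIR9. The sources used here do not name the aligner, the counting tool or the use of strand. A repeated locus was kept once. Library sizes were scaled by TMM factors of 0.976 and 1.02 (edgeR 4.0.16, R 4.3.3). No residual degrees of freedom remained, so no edgeR test was possible and no p-value is given. Log2 ratios were computed from counts without a pseudocount, with exact Clopper-Pearson intervals, and differences of ratios with normal-approximation intervals. The ratio step was tested on simulated data. DESeq2 1.42.0 gave alternative size factors. Computation used Python 3.11.15, scipy 1.17.1 and Biopython 1.88. The reference was RefSeq TAIR10.1, a different build, so no coordinates are printed. In each gene the transcript with the longest coding sequence was used.

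The 10 members and the 21 gene lists, with their rule for named genes, were chosen with earlier results of these data known. The rule took every list member past the 2-fold rule, and the 2 with most reads where fewer than 2 passed. EMB1241, J20, AT2G22360, FTSZ2-2, ERD1, HSP101, the chloroplast-encoded large subunit and the promoter motifs were added after values had been seen. Rank and motif values are descriptions. Alternatives changed the library sizes, the read minimum and the fold.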

Additional observations from a re-analysis of the deposited data

How the results depend on the processing

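All 10 log2 ratios stayed below 0 under every library size tried. Summed reads of 11 reference genes moved the median of all genes to 0.29, and 7987 of the 20628 wild-type reference reads came from AT5G60390, an elongation factor gene with a log2 ratio of -0.84. Under that scale CPN60A was at -1.23, CPN60B at -0.73, Cpn60beta2 at -0.98, CPN20 at -0.65, CHL-CPN10 at -0.15, cpHsc70-1 at -0.56 and cpHsc70-2 at -0.82. The count of lower members was then 1, against 4 with TMM, with DESeq2 size factors or with the median of the 11 reference ratios (an alternative chosen after seeing the data), and 3 with total counts. Over all genes that scale gave 82 lower and 812 higher, and it turned the medians of the other stromal chaperones to 0.0054 and of the Clp core to 0.044. A minimum of 100 reads left 80 genes lower and 97 higher of 8743 tested, with the same count of 4 members. The shares of genes past the rule were then 0.915% and 1.11%, beside 1.71% and 1.9% with at least 20 reads. At 1.5-fold 7 members were lower, with 896 genes lower and 807 higher (5.93% and 5.34% of those tested). Leaving out the smallest beta gene kept every beta share inside its interval, and the alpha, co-chaperonin and HSP70 families, with 2 genes each, gave no such value. No paired analysis was possible because each genotype has 1 library. Depth limits Cpn60alpha2, Cpn60beta3 and Cpn60beta4 most, where a 2-fold difference is not told apart from a smaller one.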

Other observations

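Genes annotated to the chloroplast stroma were counted besides the 10 genes, from a list taken from the RefSeq annotation after values had been seen. Other stromal chaperones were not taken out of it. Of 288 such genes with enough reads, without the 10 chaperones and the Rubisco genes, 5 were lower by the 2-fold rule and 0 higher, which is 1.74% lower against 1.71% of all genes. With total counts 1 was lower and 0 higher, beside 186 and 366 of all genes. With summed reference genes 0 were lower and 1 higher, beside 82 and 812. The values that follow are again with TMM unless stated. Their median log2 ratio was -0.26, with 234 of the 288 below 0, beside -0.00 and 7586 of 15111 over all genes. When summed reference genes set the library sizes, the median was 0.03, with 133 of 288 below 0, beside 0.29 and 3574 of 15111 over all genes.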
